A study of Mus musculus with 31 samples.

Results

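The 10 genes described here, which mark the maturation of olfactory sensory neurons, were followed through bulk RNA-seq libraries of microdissected embryonic mouse nerves. They are Omp, Gnal, Gng8, Gng13, Adcy3, Cnga2, Ano2, Gap43, Lhx2 and Stoml3. They were chosen by name, with earlier results of these data known. Each was found by its Ensembl identifier, and these 10 are among 47729 gene rows in the count matrix. All 10 passed the filter on low counts and were among the 19332 genes tested.

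Olfactory sensory neurons lie in the olfactory epithelium and send unmyelinated axons through the lamina propria to the olfactory bulb, where the axons form the olfactory nerve layer (ONL) together with olfactory ensheathing cells. A young neuron expresses Gap43, a growth cone protein, and the G protein gamma subunit Gng8. A mature neuron expresses olfactory marker protein (Omp) and a ciliary transduction cascade, in which odorant receptors act through the G protein alpha subunit Gnal (G-olf) and the gamma subunit Gng13 on adenylyl cyclase 3 (Adcy3). The cyclic AMP then opens the channel that contains Cnga2, and the calcium that enters opens the chloride channel Ano2. Lhx2 is a LIM-homeodomain transcription factor needed for the differentiation of these neurons, and Stoml3 is a stomatin-like membrane protein of their cilia.

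The embryos carried a Sox10:H2BVenus BAC transgene, whose nuclear fluorescence in neural crest-derived glia guided laser microdissection, and no cells were sorted. All groups share the transgene and received no treatment. The study asked how olfactory ensheathing cells differ from Schwann cells. The 31 libraries were made from pieces pooled over several sections and fall into 7 groups. At E11.5 there are 4 libraries of olfactory nerve from the lamina propria. At E13.5 there are 7 of olfactory nerve and 5 of the ONL. At E16.5 there are 4 of olfactory nerve, 4 of the "outer ONL" farthest from the bulb, 4 of the "inner ONL" next to it and 3 of trigeminal nerve branches. The "inner" and "outer" pieces were cut by position without a visible boundary, so the names stand for position and not for cell subtypes. According to the methods the 4 E11.5 pieces came from 2 embryos and the E13.5 pieces of each region from 4, so some early libraries share an embryo and p-values over them are too small. The paper states that the E16.5 olfactory and trigeminal pieces came from the same cryosections, so those groups share embryos, while the main fit is unpaired. The labels tie no library to an embryo.

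The labels of the early libraries conflict with the group means published with the study. When each of the 7 group means was rebuilt from the libraries by non-negative least squares over 1505 to 1538 genes, the median relative residual was 0.264% to 0.383%. The libraries that entered each mean carried its own label at E16.5, but 10 of the 31 libraries, all of them early, carried another label. The E13.5 ONL mean was made of the 4 libraries labelled E11.5 ON and of E13.5 ON replicate 1. The E11.5 olfactory nerve mean was made of replicates 2 to 5 of the label E13.5 ONL, and the E13.5 olfactory nerve mean of E13.5 ON replicates 2 to 7 and E13.5 ONL replicate 1. Below, groups are those of the means, and each early library is named by its label where it is singled out. For each early comparison the number of genes called by label is given, with the values of some genes. Ratios and correlations were not regrouped by label.

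Total counts were 3512627 to 36705535 per library. Levels are in CPM, the count scaled to the library's size after TMM scaling. The floor was 3 counts in a library, which is 0.83 CPM in the shallowest one. Adjusted p-values come from the quasi-likelihood F-test of edgeR, adjusted by Benjamini-Hochberg over the 19332 genes, "rose" and "fell" stand for adjusted p-values under 0.05, and fold changes are log2 values ± SE.

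Tissue markers were read beside the genes. Sox10, the glial transcription factor, was present in all 31 libraries, from 57.4 ± 18.1 CPM (SD, n = 7) in the E13.5 olfactory nerve to 646 ± 61.0 CPM (n = 4) in the outer ONL. Tubb3, the neuronal tubulin, ranged from 1135 ± 291 CPM (n = 5) in the E13.5 ONL down to 5.35 ± 0.347 CPM (n = 3) in the trigeminal nerve. By this marker the trigeminal pieces held little neuronal RNA. The 10 markers of non-neuronal olfactory epithelium (Epcam, keratins, sustentacular Cyp2g1 and others) summed to 251 to 557 CPM in the E16.5 olfactory nerve libraries, 241 to 485 CPM in the E13.5 and 113 to 177 CPM in the E11.5 olfactory nerve. The same sum was 3.30 to 16.7 CPM in all ONL libraries and 20.05 to 31.4 CPM in the trigeminal nerve. The olfactory nerve pieces therefore held RNA of epithelial genes, and the part of the neurons' cell bodies in the levels below was not tested.

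**Figure D1:**
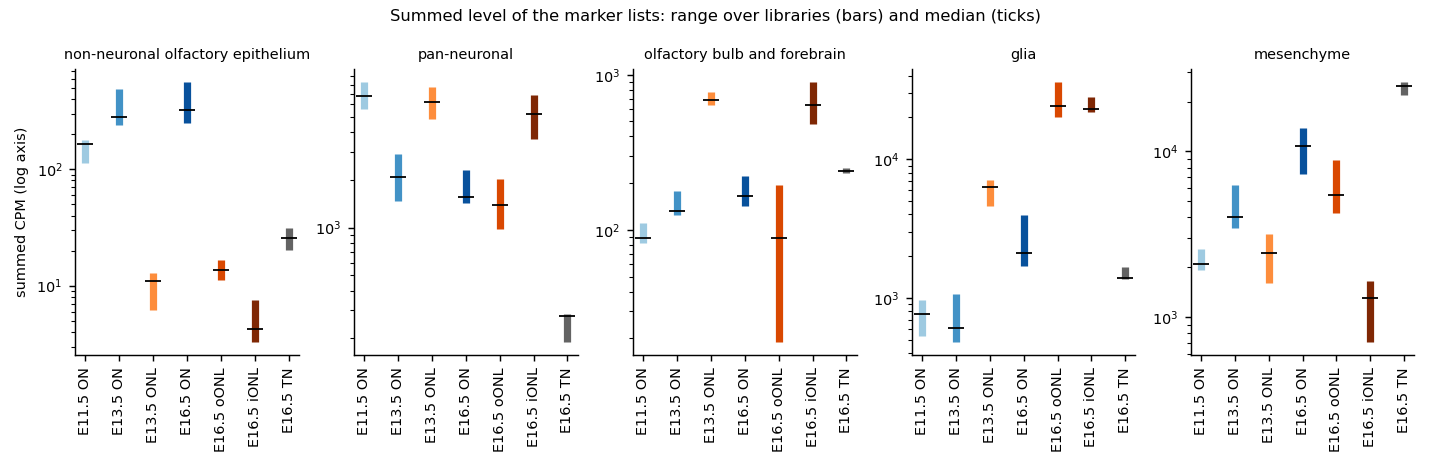
Summed CPM of 5 marker lists (vertical log axes) in the 7 groups, with bars from the lowest to the highest library and ticks at the median. The epithelial sum is 113 to 557 CPM in the olfactory nerve groups and at most 31.4 CPM in the others, while the bulb and forebrain sum is highest in the E13.5 ONL (639 to 779 CPM) and the inner ONL (482 to 894 CPM).

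Omp and Gng8 lie far apart on chromosome 7 and each other gene on a chromosome of its own (GRCm38, GENCODE M21). Omp has a single exon at chr7:98143359-98145502 on the minus strand, inside the span of Capn5 on the same strand with no shared exonic base. Cnga2 lies at chrX:71991849-72010218, Gap43 at chr16:42248442-42340651 and Gng13 at chr17:25717171-25719406. Gng8 is at chr7:16891786-16895436, Adcy3 at chr12:4133103-4213525, Ano2 at chr6:125690419-126040126, Lhx2 at chr2:38339281-38369733 and Stoml3 at chr3:53488653-53508502. Of the 773 exonic bases of Gng13, 51.6% are also exonic in Chtf18 on the other strand, as are 22.1% of those of Adcy3 in Cenpo and 7.6% of those of Gnal in Mppe1. The strand setting of the counting is not given in the sources used here, so a part of the Gng13, Adcy3 and Gnal counts cannot be told from those neighbours. In the trigeminal nerve Chtf18 was at 22.9 ± 5.71 CPM while Gng13 had 0 to 2 counts per library.

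Promoter windows of 300 bases (250 before and 50 after the RefSeq start, GRCm38.p6) were at hand for 7 of the 10 genes, 12 windows in all. They were searched for CCCNNGGG, the palindromic core bound by the Ebf (Olf-1) transcription factors, and for the homeodomain core TAATTA, each of which reads the same on both strands. CCCNNGGG was in 4 of the 12 windows, against 13.7% of the 32851 windows of all genes, and TAATTA in 0 of 12, against 5.29%. The windows with the Ebf core are shown for the 3 cascade genes that have one, because Cnga2 and Ano2 fell from the nerve to the outer ONL while the Gng13 difference did not pass. Capitals mark the bases of each match, and overlapping matches are merged.
Gng13, chr17:25716922-25717221, plus strand: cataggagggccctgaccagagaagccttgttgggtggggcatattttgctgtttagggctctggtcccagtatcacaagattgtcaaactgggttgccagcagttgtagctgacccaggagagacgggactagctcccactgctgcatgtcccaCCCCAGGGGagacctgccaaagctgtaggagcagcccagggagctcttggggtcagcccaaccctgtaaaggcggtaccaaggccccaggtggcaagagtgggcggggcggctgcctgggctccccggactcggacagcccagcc
Cnga2, chrX:71991599-71991898, plus strand: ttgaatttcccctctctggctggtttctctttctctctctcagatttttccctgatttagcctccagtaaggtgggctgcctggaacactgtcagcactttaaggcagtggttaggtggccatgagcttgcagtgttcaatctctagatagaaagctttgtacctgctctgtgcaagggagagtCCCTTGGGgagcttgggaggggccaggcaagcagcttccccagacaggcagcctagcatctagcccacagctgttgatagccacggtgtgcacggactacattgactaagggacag
Ano2, chr6:125710938-125711237, plus strand: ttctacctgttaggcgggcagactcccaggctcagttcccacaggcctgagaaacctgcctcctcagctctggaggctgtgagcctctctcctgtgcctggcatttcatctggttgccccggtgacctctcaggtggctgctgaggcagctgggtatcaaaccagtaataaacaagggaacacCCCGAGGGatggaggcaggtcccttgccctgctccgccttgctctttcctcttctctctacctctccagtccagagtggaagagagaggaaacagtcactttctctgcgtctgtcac
The matches begin 95 and 94 bases before the start in Gng13, 66 before it in Cnga2 and 67 before it in Ano2. The Ano2 window is at a downstream start of the gene, as is the remaining window with the core, in Lhx2. No match was found in the windows of Gng8, Adcy3 and Stoml3 or in the other windows of Gng13, Ano2 and Lhx2, those at the 5′ start of Ano2 among them. A match is a run of letters and no evidence of binding.

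Per kilobase of exon, the mean levels of the 10 genes in the E16.5 olfactory nerve spanned from Gap43, at 179 ± 49.2 CPM per kb (SD, n = 4), to Adcy3, at 1.65 ± 0.286 CPM per kb. Gng8 followed at 32.4 ± 10.4 and Omp at 18.4 ± 5.18 CPM per kb. The channels were lower, with Cnga2 at 8.95 ± 2.81 and Ano2 at 1.92 ± 0.835 CPM per kb. In the outer ONL the same scale gave Gap43 102.5 ± 85.6, Gng8 8.03 ± 1.75 and Omp 5.97 ± 0.901 CPM per kb, with Gng13 next at 4.04 ± 0.70, while Cnga2 and Ano2 were the lowest members at 0.280 ± 0.111 and 0.0813 ± 0.140 CPM per kb.

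Omp was highest in the E16.5 olfactory nerve (39.5 ± 11.1 CPM, SD, n = 4), followed by the outer ONL (12.8 ± 1.93, n = 4), the E13.5 olfactory nerve (7.96 ± 2.86, n = 7) and the inner ONL (4.48 ± 1.60, n = 4). It was lowest in the E11.5 olfactory nerve (1.07 ± 0.979, n = 4), the trigeminal nerve (0.657 ± 0.463, n = 3) and the E13.5 ONL (0.602 ± 0.484, n = 5). The libraries of neighbours in this order overlapped, except between the E16.5 olfactory nerve and the outer ONL and between the inner ONL and the E11.5 olfactory nerve. The mean of Gap43 was 1197 ± 236 CPM (n = 4) in the E11.5 olfactory nerve, 988 ± 281 (n = 4) in the inner ONL and 779 ± 204 (n = 5) in the E13.5 ONL. It was 321 ± 44.0 (n = 7) in the E13.5 and 272 ± 74.9 (n = 4) in the E16.5 olfactory nerve, 204 ± 30.0 (n = 3) in the trigeminal nerve and 156 ± 130 (n = 4) in the outer ONL. In that order only the E13.5 ONL and the E13.5 olfactory nerve did not overlap with their neighbour across that step.

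**Figure D2:**
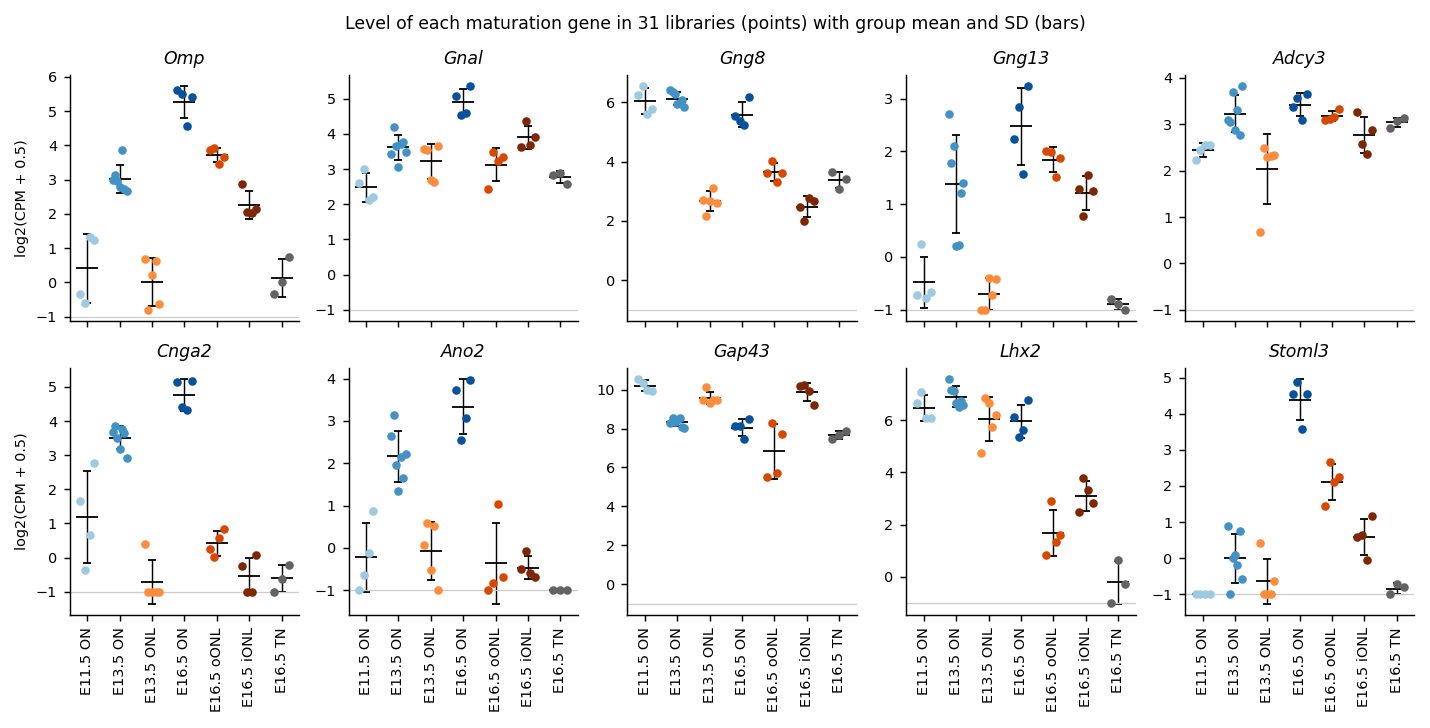
log2(CPM + 0.5) of each of the 10 genes (1 panel each) in the 31 libraries, with points for libraries, bars for group means and SD, and a grey line at 0 CPM. Omp and Stoml3 stand highest in the E16.5 olfactory nerve, Gap43 in the E11.5 olfactory nerve, E13.5 ONL and inner ONL, and Cnga2 and Ano2 stand near the grey line in every ONL group.

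At E16.5, 7 of the 10 genes fell from the olfactory nerve to the outer ONL and none rose, where 11.8% of all genes tested fell, 10.2% rose and 22% changed either way. The median log2 fold change was -1.92 over the 10 and 0.01 over all genes. The channel genes and Lhx2 had differences of over 4 log2 units, while Omp, Gnal, Gng8 and Stoml3 differed by 1.6 to 2.4. The levels of Gng13, Adcy3 and Gap43 overlapped between the regions. In bulk pieces, fewer neurons or axons and less RNA in each cannot be told apart.

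Omp was at 48.2, 44.7, 23.3 and 41.6 CPM in the 4 olfactory nerve libraries and at 14.1, 14.6, 10.4 and 12.1 CPM in the 4 of the outer ONL. Every olfactory nerve library was above every outer ONL library. Omp fell by 1.62 ± 0.51 (adjusted p = 0.021), but the adjusted p was 0.0556, 0.057 or 0.0523 without ON replicate 1, outer ONL replicate 3 or outer ONL replicate 4, and 0.154 when the early libraries that share the fit were grouped by label. Stoml3 was at 23.0, 28.8, 11.4 and 22.7 CPM in the nerve and at 2.22, 5.78, 3.84 and 4.27 CPM in the outer ONL, again without overlap. It fell by 2.41 ± 0.62 (adjusted p = 0.00523).

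In the transduction cascade, Gnal, the alpha subunit, was at 32.9, 22.9, 23.7 and 40.7 CPM in the nerve and at 4.91, 10.7, 8.82 and 9.58 CPM in the outer ONL, and fell by 1.82 ± 0.30 (adjusted p = 2.58e-05). Cnga2 was at 35.1, 20.8, 19.6 and 35.3 CPM in the nerve and at 0.69, 0.503, 0.996 and 1.28 CPM in the outer ONL. It fell by 4.98 ± 0.78 (adjusted p = 1.44e-05), and no outer ONL library had more than 21 counts. Ano2 was at 12.9, 5.38, 7.93 and 15.2 CPM in the nerve. In the outer ONL 3 libraries had 0, 1 and 2 counts of Ano2 and replicate 3 had 22 (1.57 CPM), and the gene fell by 4.56 ± 1.02 (adjusted p = 0.00137). Without that library the fitted difference was -7.17 (adjusted p = 0.000101), a value that depends on the prior count, since the rest were under the floor. The chloride channel was thus near or under the floor outside 1 library.

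Gng13, the gamma subunit of mature neurons, was at 4.21, 6.68, 2.47 and 8.97 CPM in the nerve and at 3.53, 3.45, 2.35 and 3.17 CPM in the outer ONL, and its log2 difference of -0.84 ± 0.62 did not pass (adjusted p = 0.382). Adcy3 was at 10.3 ± 1.79 CPM in the nerve and 8.53 ± 0.716 CPM in the outer ONL (SD, n = 4 each), with overlapping libraries. Both genes share exonic bases with a neighbour on the other strand. Chtf18, the neighbour of Gng13, rose by 0.60 ± 0.22 (adjusted p = 0.0464).

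Of the genes of younger neurons, Gng8 was at 46.0, 41.4, 37.3 and 72.4 CPM in the nerve and at 11.8, 15.8, 9.39 and 11.8 CPM in the outer ONL, and fell by 2.01 ± 0.24 (adjusted p = 2.41e-07) without overlap. Lhx2 was at 68.5, 40.1, 48.6 and 108 CPM in the nerve and at 1.30, 7.04, 1.99 and 2.50 CPM in the outer ONL, and fell by 4.35 ± 0.54 (adjusted p = 3.6e-07). Gap43 was at 277, 275, 177 and 360 CPM in the nerve and at 45.1, 313, 52.7 and 214 CPM in the outer ONL. Its difference of -0.80 ± 0.37 did not pass (adjusted p = 0.122), and without outer ONL replicate 2 it was -1.39 (adjusted p = 0.00492). The 4 outer ONL libraries split for Gap43 in the order of their Tubb3 levels, which were 11.4, 199, 23.7 and 95.8 CPM, and of the summed bulb and forebrain markers, at 19.0, 193, 49.7 and 129 CPM. The part of bulb neurons in the Gap43 level was not tested.

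Epithelial markers moved the same way as the genes that fell. Epcam fell by 3.94 ± 0.41 (adjusted p = 1.81e-08), 9 of the 10 epithelial markers fell, and Cyp2g1, Cyp2a5, Muc2 and Krt5 were at or under the floor in every outer ONL library. Of 12 transcription factor genes of the neuronal lineage 10 fell, Nhlh1, Neurog1 and Neurod1 by the most (-5.72 ± 0.56, -4.83 ± 0.89 and -4.53 ± 0.56). Of 13 further genes of mature neurons 7 fell, among them Rtp1 and Rtp2, which help odorant receptors reach the membrane (-4.78 ± 0.82 and -4.41 ± 0.48), and 1 rose. That gene, the exchanger Slc24a4, was picked out after its values were seen and was at 3.72 ± 1.43 CPM in the outer ONL against 0.598 ± 0.357 CPM in the nerve (SD, n = 4 each, adjusted p = 0.0151). The 13 genes summed to 190 to 302 CPM in the nerve and 93.4 to 123 CPM in the outer ONL. They also summed to 216 to 343 CPM in the inner ONL and 220 to 415 CPM in the E13.5 ONL, so across all groups the sum did not follow Omp. The 12 transcription factor genes summed to 396 to 510 CPM in the trigeminal nerve and 449 to 816 CPM in the olfactory nerve. Of 9 immature neuron genes 5 fell and none rose. In the pan-neuronal list 3 fell and 2 rose, the neurofilament genes Nefm (3.58 ± 0.35) and Nefl (2.44 ± 0.46). Of 7 glial genes 6 rose, Npy by 5.64 ± 0.53 and Sox10 by 2.36 ± 0.27, and 5 of 6 mesenchymal genes fell. The part of these tissues in the differences of the 10 genes was not tested. Odorant receptor genes above the floor numbered 188 to 339 in a nerve library and 14 to 19 in an outer ONL library.

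**Figure D3:**
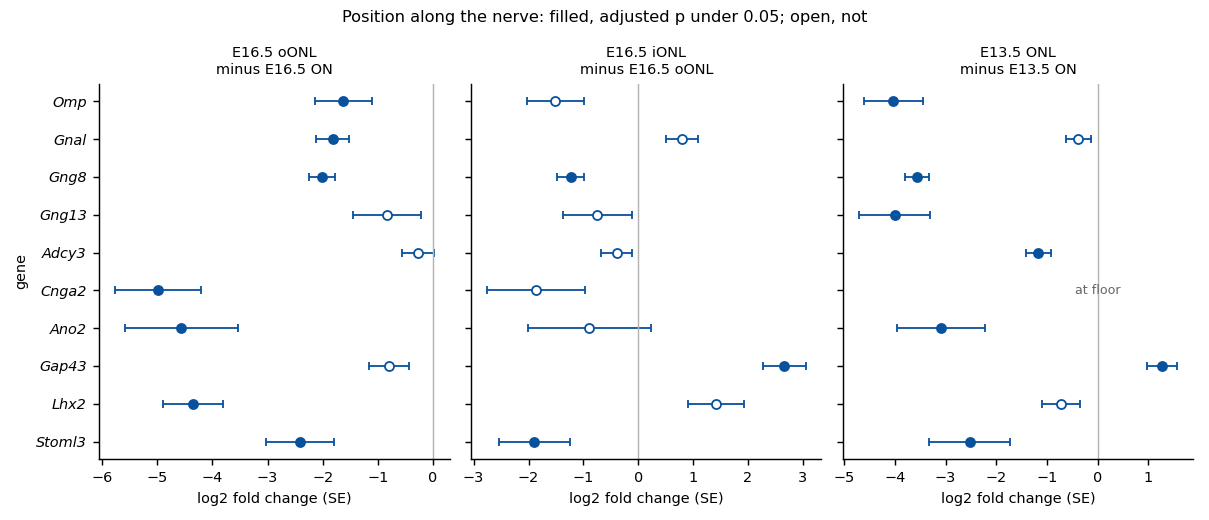
log2 fold change with SE of the 10 genes between positions along the nerve at E16.5 and E13.5 (horizontal axes), with filled points at adjusted p under 0.05 and a note in place of Cnga2 where the E13.5 ONL was at the floor. In the left panel Cnga2, Ano2 and Lhx2 lie beyond -4 and Omp, Gnal, Gng8 and Stoml3 between -1.62 and -2.41.

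From the outer to the inner ONL at E16.5, Gap43 rose while Gng8 and Stoml3 fell, 3 of the 10 genes where 14.1% of all genes changed, 8.2% up and 5.94% down. Gap43 was at 1156, 1225, 975 and 598 CPM in the 4 inner ONL libraries, each above every outer ONL library, and the rise was 2.66 ± 0.39 (adjusted p = 1.13e-05). Gng8 was at 5.04, 3.46, 6.36 and 5.91 CPM in the inner ONL, all below the outer ONL, and fell by 1.23 ± 0.25 (adjusted p = 0.000591), a call that was lost (adjusted p = 0.0752) when the early libraries that share the fit were grouped by label. Stoml3 was at 1.01, 1.05, 0.471 and 1.75 CPM and fell by 1.90 ± 0.64 (adjusted p = 0.0468). That call was lost, with adjusted p-values of 0.0755 to 0.136, in 6 of the 8 fits that left out 1 library. The number of genes called was 1 by label, 5 with DESeq2, 5 when only E16.5 libraries were fitted and 6 when a replicate block was added to that fit.

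Omp was at 6.86, 3.61, 3.53 and 3.92 CPM in the inner ONL, below all outer ONL libraries, and its difference of -1.51 ± 0.52 just missed (adjusted p = 0.0511). Without inner ONL replicate 1, the library at 6.86 CPM, it was -1.79 (adjusted p = 0.0449). Gnal was higher in every inner than in any outer ONL library (14.7 ± 3.78 against 8.50 ± 2.51 CPM, SD, n = 4 each), with 0.79 ± 0.29 (adjusted p = 0.0694). Lhx2 differed by 1.41 ± 0.51 (adjusted p = 0.0629), or by 2.14 (adjusted p = 0.00701) without outer ONL replicate 2, and Cnga2, with at most 9 counts in an inner ONL library, by -1.86 ± 0.89 (adjusted p = 0.199). Neuronal and bulb genes moved with Gap43. Tubb3 rose by 2.87 ± 0.48 (adjusted p = 7.75e-05), as did 9 of 10 pan-neuronal, 7 of 9 immature neuron and 12 of 13 bulb and forebrain genes, and none of these 3 lists held a gene that fell. Bulb projection neuron genes were among them, with Tbr1 at 25.8 ± 11.98 CPM in the inner and 3.13 ± 3.01 CPM in the outer ONL and Eomes at 28.9 ± 8.94 and 3.05 ± 4.37 CPM. The mature neuron list had 4 genes that rose, led by Slc17a6 (3.31 ± 0.58), Kirrel3 (2.38 ± 0.61) and Pde4a (1.72 ± 0.26), and 1 that fell, Rtp2. The part of bulb tissue in the Gap43 difference was not tested.

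Against the trigeminal nerve, the E16.5 olfactory nerve had higher levels of 8 of the 10 genes, where 13% of all genes were higher, 10.6% lower and 23.6% either. The trigeminal nerve carries axons of somatosensory neurons with Schwann cells and holds no olfactory axons. Omp was at 0.288, 0.505 and 1.18 CPM in its 3 libraries, and the olfactory nerve was higher by 5.90 ± 0.72 (adjusted p = 2.75e-07). Cnga2 had 0, 4 and 10 counts there and was higher by 7.29 ± 1.01 in the olfactory nerve (adjusted p = 2.08e-06). For 3 genes the count was at or under 3 in every trigeminal library, which makes the olfactory nerve at least 195-fold higher for Stoml3, at least 93.9-fold for Ano2 and at least 50.6-fold for Gng13, against the floor of the shallowest trigeminal library. Lhx2 was higher by 7.15 ± 0.72 (adjusted p = 1.02e-08).

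Gnal and Gng8 were higher by 2.25 ± 0.33 and 2.29 ± 0.27, from trigeminal levels of 6.33 ± 0.795 and 10.1 ± 1.99 CPM (SD, n = 3 each). Adcy3, at 7.71 ± 0.581 CPM, and Gap43, at 204 ± 30.0 CPM, overlapped with the olfactory nerve (adjusted p = 0.358 and 0.496). Both genes were thus well above the floor in a nerve without olfactory axons. Epcam was higher in the olfactory nerve by 5.17 ± 0.49 and Tubb3 by 5.21 ± 0.62. Of 7 trigeminal sensory genes 3 were higher in the olfactory nerve and 2 lower, with the peptide gene Calca at -6.25 ± 0.65.

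Between the outer ONL and the trigeminal nerve 5 of the 10 genes differed in either direction, where 25.8% of all genes did. All 5 were higher in the ONL. Omp was higher by 4.27 ± 0.67 (adjusted p = 1.22e-05) and Lhx2 by 2.80 ± 0.68 (adjusted p = 0.00227), or by 4.26 (adjusted p = 0.00071) without trigeminal replicate 2. Stoml3 was at least 36.5-fold and Gng13 at least 28.4-fold higher, and Chtf18 was higher by 0.68 ± 0.24 (adjusted p = 0.0316). The bound for Ano2, at least 3.97-fold, rests on outer ONL replicate 3, since the other 3 libraries had 0 to 2 counts, and 4 members passed without that library. Gnal and Gng8, which separated the olfactory from the trigeminal nerve, overlapped here: Gng8 was at 12.2 ± 2.67 CPM in the outer ONL and 10.1 ± 1.99 CPM in the trigeminal nerve, 0.28 ± 0.26 apart (adjusted p = 0.471). The summed epithelial markers were at 11.2 to 16.7 CPM in the outer ONL and 20.05 to 31.4 CPM in the trigeminal nerve, where Cdh1 alone made 18.1 ± 4.25 CPM. Epcam by itself was higher in the outer ONL (1.23 ± 0.44, adjusted p = 0.0402), at 3.69 ± 1.00 against 1.58 ± 0.458 CPM (SD, n = 4 and 3). Without trigeminal replicate 3, Cnga2 passed too (3.47, adjusted p = 0.0411), against 2.31 ± 0.94 (adjusted p = 0.0686) with it.

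In the olfactory nerve from E11.5 to E13.5, 7 genes rose and Gap43 fell, where 20.2% of all genes rose, 16.4% fell and 36.6% changed either way. Libraries share embryos here, so p-values are too small. Omp was at 0.291, 0.163, 1.99 and 1.84 CPM in the 4 E11.5 libraries, and at 5.89, 7.32 and 14.1 CPM as lowest, median and highest of the 7 E13.5 libraries. The groups did not overlap, and the rise was 2.92 ± 0.53 (adjusted p = 7.44e-05). Gap43 was at 1475, 1310, 1021 and 982 CPM at E11.5 and at 263, 318 and 375 CPM (lowest, median, highest) at E13.5, and fell by 1.90 ± 0.31 (adjusted p = 2.13e-05). Gng8 was at 68.1 ± 20.8 CPM (n = 4) at E11.5 and 70.1 ± 10.9 CPM (n = 7) at E13.5 in overlapping libraries.

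The cascade genes rose too. Gng13 rose by 3.31 ± 0.66 (adjusted p = 0.000227), Ano2 by 3.19 ± 0.89 (adjusted p = 0.00609), Cnga2 by 2.103 ± 0.62 (adjusted p = 0.00877), Gnal by 1.19 ± 0.27 (adjusted p = 0.00081) and Adcy3 by 0.89 ± 0.26 (adjusted p = 0.00787). Of these, Gng13 had overlapping libraries, at 0.083 to 0.679 CPM at E11.5 and 0.649 to 6.08 CPM at E13.5. Cnga2 was already above the floor in all 4 E11.5 libraries, at 2.68, 0.272, 1.08 and 6.34 CPM, as was Omp. Stoml3 had 0 counts in every E11.5 library and 0 to 23 counts at E13.5, where its mean of 0.592 CPM was at least 4.75-fold above the E11.5 floor. Pan-neuronal genes moved with Gap43 and not with Omp. Of 10 of them 8 fell and none rose, Tubb3 among them (-1.17 ± 0.39, adjusted p = 0.0189), with the neurofilaments Nefm (-5.05 ± 0.28) and Nefl (-3.04 ± 0.37) by the most. Of the epithelial markers 5 of 10 rose, and of the transcription factors 7 of 12, Neurod1 by 3.22 ± 0.48. Epcam was at 50.4 to 78.6 CPM at E11.5 and 67.0 to 206 CPM at E13.5. Sox10 was at 287 to 358 CPM at E11.5 and 39.9 to 85.4 CPM at E13.5, and of 7 glial genes 2 rose and 3 fell. All 6 mesenchymal genes rose. The part of these tissues in the differences of the 10 genes was not tested. By label 5 of the 10 genes were called, where 17.5% of all genes were. All 5 were higher, Gng8 among them with 3.38 (adjusted p = 5.65e-05), and the change of Gap43 was -1.05 (adjusted p = 0.0644).

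From E13.5 to E16.5 the olfactory nerve gained Omp, Gnal and Stoml3, 3 genes where 15.2% of all genes rose, 13.6% fell and 28.8% changed either way. Omp rose by 2.31 ± 0.44 (adjusted p = 0.000202) to a level 4.96-fold that of E13.5, and no library overlapped. Stoml3 had a mean of 0.592 ± 0.502 CPM at E13.5, with 2 of 7 libraries at or under the floor, and of 21.5 ± 7.30 CPM at E16.5, a rise by 5.07 ± 0.57 (adjusted p = 2.84e-07). Gnal rose by 1.32 ± 0.25 (adjusted p = 0.000173), and Mppe1, its opposite-strand neighbour, by 0.97 ± 0.23 (adjusted p = 0.00226). Cnga2 was higher in every E16.5 library than in any at E13.5 (27.7 ± 8.71 against 11.2 ± 2.52 CPM), but its 1.31 ± 0.55 did not pass (adjusted p = 0.0724).

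Gng13 (1.10 ± 0.53, adjusted p = 0.121) and Ano2 (1.27 ± 0.73, adjusted p = 0.199) had overlapping libraries. Gap43 was at 321 ± 44.0 and 272 ± 74.9 CPM, Gng8 had -0.51 ± 0.21 (adjusted p = 0.0644) and Lhx2 -0.90 ± 0.41 (adjusted p = 0.103). Fitted with these groups alone, 7 genes passed: Cnga2 (1.33), Ano2 (1.30), Gng8 (-0.49) and Lhx2 (-0.88) besides the 3. Of the 12 transcription factor genes 8 fell and none rose, with Insm1 (-1.76 ± 0.45), Ebf3 (-1.65 ± 0.39) and Emx2 (-1.44 ± 0.28) by the most. Epcam fell (-1.002 ± 0.32, adjusted p = 0.0189), while Krt5 and Trp63, genes of horizontal basal cells, rose by 5.80 ± 0.84 and 4.36 ± 0.86. Of 6 mesenchymal genes 4 rose, Col1a1 by 2.91 ± 0.29, and 2 fell. Of 7 glial genes 6 rose, Sox10 by 1.13 ± 0.23, and none fell. Connective tissue and glial markers thus moved between these stages. Grouped by label, 3 genes were called again, where 25.1% of all genes were.

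**Figure D4:**
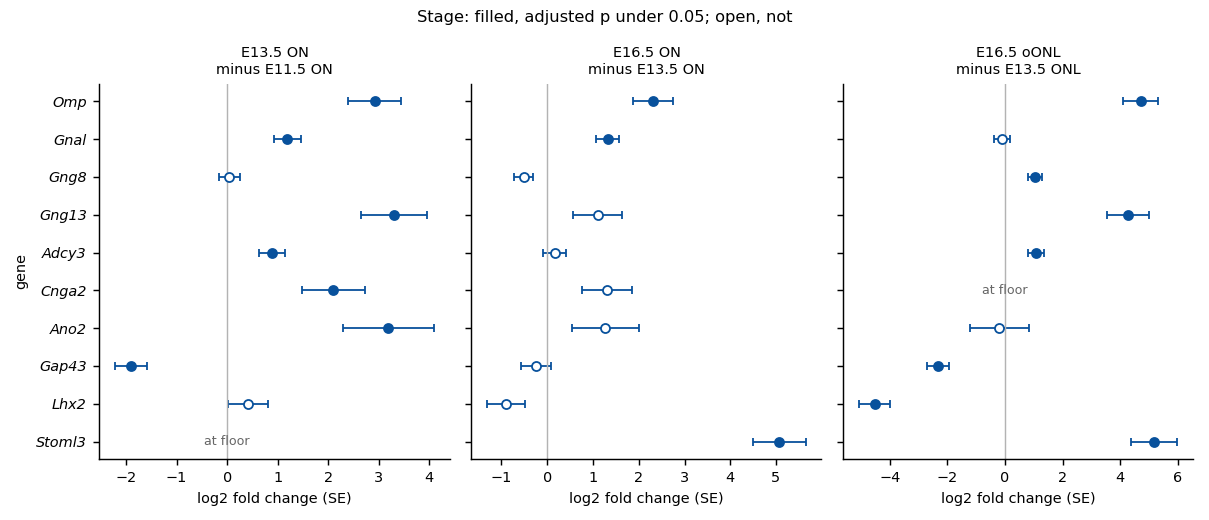
log2 fold change with SE of the 10 genes between stages (horizontal axes), with filled points at adjusted p under 0.05 and a note where a group was at the floor. Gap43 lies at -1.90 in the left panel and at -2.32 in the right panel, and Omp lies at 2.92, 2.31 and 4.72 from left to right.

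At E13.5 the ONL differed from the olfactory nerve in 8 of the 10 genes, where 31.5% of all genes changed, 15.4% up and 16.1% down. Gap43 rose by 1.28 ± 0.30 (adjusted p = 0.00114) and 7 genes fell. Omp was at 1.11, 0.072, 0.65, 1.04 and 0.143 CPM in the 5 ONL libraries, at 1 to 10 counts each, all below the 5.89 CPM of the lowest olfactory nerve library. It fell by 4.03 ± 0.58 (adjusted p = 1.88e-06). Gng8 was at 6.09, 4.03, 5.92, 8.20 and 5.59 CPM in the ONL and at 57.0, 67.1 and 84.7 CPM (lowest, median, highest) in the nerve, and fell by 3.56 ± 0.23 (adjusted p = 5.13e-13). Gng13 (-4.01 ± 0.70), Ano2 (-3.09 ± 0.87), Stoml3 (-2.53 ± 0.80) and Adcy3 (-1.17 ± 0.25) fell as well. Gng13 was at or under the floor in 3 of the 5 ONL libraries, Ano2 in 3 and Stoml3 in 4, and Stoml3 overlapped with the nerve. Chtf18 and Cenpo, the opposite-strand neighbours of Gng13 and Adcy3, had -0.56 ± 0.19 (adjusted p = 0.0208) and -0.49 ± 0.16 (adjusted p = 0.019). The Stoml3 call had adjusted p = 0.0526 and 0.055 without the library labelled E11.5 ON replicate 2 or 3.

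Cnga2 had 0 counts in 4 of the 5 ONL libraries and 3 in the fifth, the shallowest library of all, so the nerve mean of 11.2 CPM was at least 13.46-fold higher. Gnal (-0.38 ± 0.24, adjusted p = 0.261) and Lhx2 (-0.72 ± 0.38, adjusted p = 0.158) overlapped between the regions. Lhx2 was at 26.3, 117, 101, 53.6 and 74.0 CPM in the ONL. Of 13 bulb and forebrain genes 8 were higher in the ONL and 2 lower. Tbr1 was at 267 ± 64.0 CPM and Eomes at 56.3 ± 17.2 CPM in the ONL (SD, n = 5), against 0.784 ± 0.679 and 0.0553 ± 0.0633 CPM in the nerve (n = 7). Lhx2 is itself expressed in embryonic forebrain, and the part of forebrain tissue in its ONL level was not tested. Tubb3 rose by 1.58 ± 0.37 (adjusted p = 0.00123) and Epcam fell by 4.33 ± 0.36 (adjusted p = 9.29e-11). By label 3 genes were called, Gap43, Gnal and Stoml3, where 17.7% of all genes were, and Gng8 differed by 0.072 (adjusted p = 0.906). Omp had -1.87 by label (adjusted p = 0.0535), and Gng13, Cnga2, Ano2 and Adcy3 were not called either (adjusted p = 0.0625, 0.176, 0.226 and 0.603).

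From the E13.5 ONL to the E16.5 outer ONL, 6 genes rose and Gap43 and Lhx2 fell, where 21.9% of all genes rose, 20% fell and 41.9% changed either way. Omp rose by 4.72 ± 0.61 (adjusted p = 3.21e-07), to 21.2-fold its E13.5 level, with no overlap. Stoml3 rose by 5.19 ± 0.80 (adjusted p = 7.75e-06), Gng13 by 4.28 ± 0.73 (adjusted p = 2.27e-05), Adcy3 by 1.06 ± 0.28 (adjusted p = 0.00235) and Gng8 by 1.05 ± 0.23 (adjusted p = 0.000545). Cnga2 is the sixth gene called, but its outer ONL mean of 0.868 CPM was only at least 1.05-fold over the floor of the shallowest E13.5 library. Ano2 and Gnal overlapped between the stages. The opposite-strand neighbours moved with Gng13 and Adcy3: Chtf18 rose by 1.67 ± 0.21 (adjusted p = 1.95e-07) and Cenpo by 0.47 ± 0.18 (adjusted p = 0.0384).

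Gap43 fell by 2.32 ± 0.37 (adjusted p = 8.49e-06) and Lhx2 fell by 4.53 ± 0.53 (adjusted p = 6.35e-08). Tubb3 also fell by 3.78 ± 0.50 (adjusted p = 3.91e-07), as did 8 of 10 pan-neuronal and 7 of 13 bulb and forebrain genes, Tbr1 among them (-6.39 ± 0.62), while Sox10 rose by 2.18 ± 0.25 (adjusted p = 4.58e-08). The summed epithelial markers were at 6.18 to 12.8 CPM at E13.5 and at 11.2 to 16.7 CPM at E16.5. Of the 10 epithelial markers 2 rose, Trp63 by 3.79 ± 1.05 (adjusted p = 0.00411) and Aqp3, and 1 fell. The part of these tissues in the differences of the 10 genes was not tested here. The E13.5 ONL was not divided into outer and inner pieces, so age and position within the ONL cannot be told apart. Of 13 further genes of mature neurons 4 rose and 4 fell. Cngb1, the beta subunit of the channel, was among those that rose, by 4.09 ± 0.71 (adjusted p = 2.6e-05). By label 6 genes were called, where 35.2% of all genes were, and Gng8 was called in the opposite direction, with -2.43 (adjusted p = 5.57e-05). Adcy3 (0.36, adjusted p = 0.422) and Cnga2 (-1.97, adjusted p = 0.115) were not called by label.

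Whether the step from nerve to ONL differed between stages was tested as an interaction, the E16.5 outer ONL minus nerve difference less that of E13.5. The E13.5 ONL was not divided and the inner ONL did not enter, so age and position within the ONL cannot be told apart. In the inner ONL Gap43 was at 988 ± 281 CPM, against 272 ± 74.9 CPM in the E16.5 nerve. Gng8 was at 5.19 ± 1.28 against 49.3 ± 15.8 CPM (SD, n = 4 each). The interaction passed for 6 of the 10 genes, where it did for 12.3% of all genes, with 5.59% positive and 6.75% negative. It was positive for Omp (2.41 ± 0.76, adjusted p = 0.0323), Gng13 (3.17 ± 0.92, adjusted p = 0.0189) and Gng8 (1.55 ± 0.31, adjusted p = 0.000916), whose drop to the outer ONL at E16.5 was smaller than that to the ONL at E13.5. It was negative for Lhx2 (-3.63 ± 0.62, adjusted p = 0.000168), Gap43 (-2.08 ± 0.47, adjusted p = 0.00303) and Gnal (-1.44 ± 0.38, adjusted p = 0.00932). Adcy3 (0.90 ± 0.38, adjusted p = 0.126) and Ano2 (-1.47 ± 1.27, adjusted p = 0.548) did not pass, and for Cnga2 the E13.5 ONL was at the floor. The term of Chtf18, the neighbour of Gng13, was 1.16 ± 0.29 (adjusted p = 0.00595). The Omp interaction lost its call in 6 of 20 fits without 1 library (adjusted p = 0.055 to 0.0866). By label 3 genes were called, where 12.5% of all genes were, and Omp had 0.25 (adjusted p = 0.911) and Gng8 -2.08 (adjusted p = 0.00991). The negative terms ran with that of Tubb3 (-2.84 ± 0.60, adjusted p = 0.00136), and that of Epcam was 0.38 ± 0.49 (adjusted p = 0.718).

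Ratios within a library cancel its scaling and describe the balance of the genes. The log2 ratio of Omp to Gap43 was -9.79 (median, range -10.95 to -8.68) in the E11.5, -5.35 (-5.64 to -4.64) in the E13.5 and -2.75 (-3.10 to -2.51) in the E16.5 olfactory nerve. These 3 ranges were apart. In the ONL it was -9.13 (-10.96 to -8.77) at E13.5, -3.19 (-4.38 to -1.64) in the outer and -7.61 (-8.22 to -7.08) in the inner pieces at E16.5. Gng8 to Gap43 went from -4.22 at E11.5 to -2.19 at E13.5 and -2.44 at E16.5 in the olfactory nerve, with overlapping ranges at the last 2 stages. In groups with Omp near 0 the pseudocount of 0.5 CPM sets much of the ratio. The log2 ratio of Omp to Gng8 was -0.30 (-0.79 to 0.11) in the E16.5 nerve and 0.08 (-0.12 to 0.25) in the outer ONL.

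Against Omp, Cnga2, Lhx2, Gng13 and Stoml3 parted between the E16.5 nerve and the outer ONL. The ranges overlapped for Gng8, Gap43 and Ano2, and ratios of Gnal and Adcy3 to Omp were not computed. Cnga2 to Omp was -0.35 (median, range -1.09 to -0.23) in the nerve and -3.24 (-3.91 to -2.82) in the outer ONL. Lhx2 to Omp went from 0.77 (-0.15 to 1.37) to -2.097 (-3.02 to -1.0002). Gng13 to Omp was higher in the outer ONL, at -1.89 (-1.93 to -1.78) against -2.83 (-3.37 to -2.15). Stoml3 to Omp was -0.93 (-1.05 to -0.62) in the nerve and -1.36 (-2.42 to -1.26) in the outer ONL. These are descriptions, and the differences between genes were not tested.

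**Figure D5:**
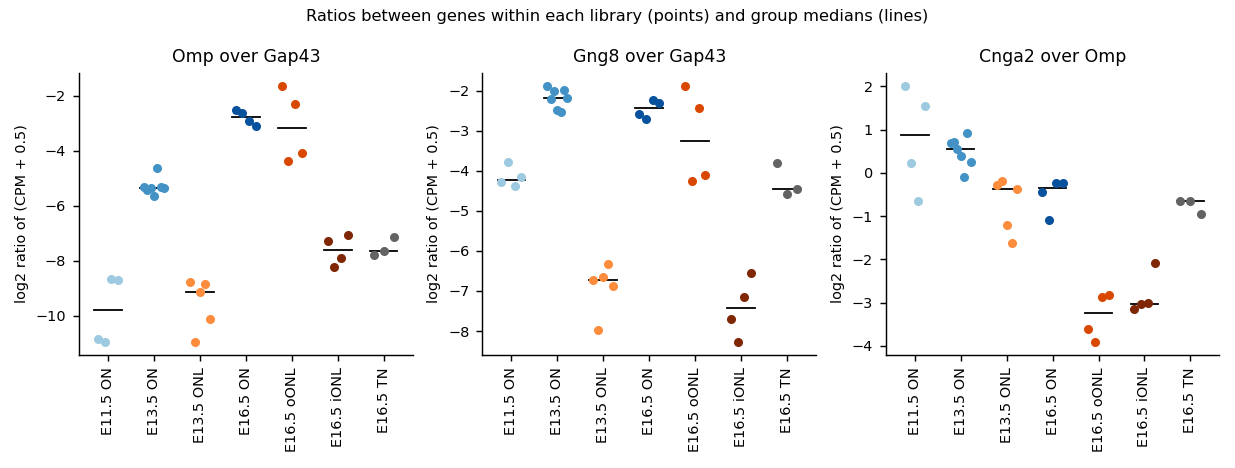
log2 ratio of Omp to Gap43, of Gng8 to Gap43 and of Cnga2 to Omp in each library (points), computed from CPM + 0.5, with group medians as lines. Omp over Gap43 climbs from -9.79 to -2.75 over the 3 olfactory nerve stages, and Cnga2 over Omp lies at -0.35 in the E16.5 nerve and at -3.24 in the outer ONL.

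The odorant receptor genes, the upstream partners of the cascade, were counted by their Olfr symbols without pseudogenes. Those above the floor numbered 46 to 88 in an E11.5, 116 to 282 in an E13.5 and 188 to 339 in an E16.5 olfactory nerve library. In the ONL there were 6 to 11 at E13.5, 14 to 19 in the outer and 9 to 11 in the inner pieces, and 8 to 17 in the trigeminal nerve. Their summed level was 264, 348 and 357 CPM (medians) in the 3 olfactory nerve stages and 10.4 to 27.9 CPM in the other groups. The number above a floor in counts grows with depth, and the trigeminal libraries, at 30221586 to 32508725 counts, were deeper than those of the outer ONL, at 14808477 to 16628064. By label the receptor numbers were 6 to 11 for E11.5 ON, 11 to 282 for E13.5 ON and 46 to 116 for E13.5 ONL.

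Among genes with a mean of at least 10 CPM, those most like Omp over the 31 libraries were Slc25a35 (Pearson r = 0.904 of log2 levels), Aox3 (0.886), Elmod3 (0.883), C630043F03Rik (0.864) and Bphl (0.860), and most like Gap43 were Soga3 (0.916), Crmp1 (0.912), Dmtn (0.908), Syt5 (0.904) and Trim46 (0.902). Crmp1, a growth cone phosphoprotein, belongs to the immature neuron list. Within the 10 genes, Omp correlated most with Gng13 (0.858) and Stoml3 (0.837), next with Cnga2 (0.716), and least with Lhx2 (0.062), and with Gap43 the value was -0.491. These points share groups, embryos and tissue makeup, so the correlations are descriptions.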

How the data were processed

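The authors microdissected nerve pieces, made cDNA libraries with SMART-seq, sequenced them on a NextSeq instrument and, as the submitters' processing notes say, used FastQC, TopHat2 2.1.0 (mm10) and HTSeq. They deposited raw read counts per Ensembl gene for 31 libraries in 1 matrix, and these counts were used as deposited. Of 47730 rows, 1 without a gene name was left out. GENCODE M21 (GRCm38) gave 47224 of 47729 genes a symbol, positions and exonic lengths.

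Counts were scaled by TMM, kept by filterByExpr (19332 genes) and tested in 1 fit of all 7 groups with edgeR 4.0.16 (glmQLFit, glmQLFTest) in R 4.3.3. The standard error is the absolute log2 fold change over the square root of F. Ratios used a pseudocount of 0.5 CPM. On simulated counts for the outer ONL minus olfactory nerve comparison at E16.5 (19332 genes), the fit recovered 53 of 100 genes changed 2-fold and 86 of 100 changed 4-fold, with 7 false calls. The main design groups the early libraries by the published group means, matched here with SciPy 1.17.1, from a supplementary table held in part. Those means were used for the match only.

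The 10 genes and all marker lists were chosen with earlier results of these data known. Of each list, up to 3 called genes with the largest change whose higher group averaged 5 CPM or more were named per comparison, besides Tubb3, Sox10 and Epcam, together with the 5 genes most like Omp and Gap43. Slc24a4 and the single Rtp2 fall were named after their values were seen, as was Cngb1 beside Cnga2. Lists for vomeronasal and GnRH neurons (4 genes) and trigeminal sensory neurons (7 genes) had at most 3 genes called higher and at most 3 called lower in each comparison. Depth was 3512627 to 36705535 counts, and floors and counts cover counting error only.

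Whether equal replicate numbers pair E16.5 libraries was checked on deviations of 15539 genes from the group means. Same-number libraries of olfactory nerve and outer ONL correlated at 0.186 to 0.406, and other pairs at -0.323 to 0.324. The ranges overlap, and not every outer ONL library correlated best with the nerve library of its own number. These numbers were taken to pair, from the data alone, because every same-number correlation was over 0.1. The other E16.5 comparisons did not meet this. Alternatives were grouping by label, DESeq2 1.42.0, total count and upper quartile scaling, no filter or at least 1 CPM in 4 libraries, fits of 2 groups or of E16.5 alone, a replicate block, and leaving out each library.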

Additional observations from a re-analysis of the deposited data

Results flagged for a closer look

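Libraries far from the others of their group were sought with Dixon's test in 59 sets of values, of which chance flags about 1 in 20, and 8 were found. In the E13.5 olfactory nerve, Omp was at 14.1 CPM in the library labelled E13.5 ON replicate 6 and at 5.89 to 8.32 CPM in the other 6. In the inner ONL, Omp was at 6.86 CPM in replicate 1 and at 3.53 to 3.92 CPM in the others. Ano2 was at 1.57 CPM in outer ONL replicate 3 and at 0 to 0.122 CPM in the others. Gng13 was at 0.679 CPM in the library labelled E13.5 ONL replicate 3, in the E11.5 olfactory nerve group, and at 0.083 to 0.129 CPM in the others.

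In the E13.5 ONL group, the library labelled E11.5 ON replicate 1, the shallowest with 3512627 counts, stood apart for 3 genes. Adcy3 was at 1.11 CPM there and at 4.42 to 5.11 CPM in the others, Cnga2 at 0.83 CPM against 0, and Stoml3 at 0.83 CPM against 0 to 0.143 CPM, where 0.83 CPM is 3 counts. The library labelled E11.5 ON replicate 2 had 1140 CPM of Gap43, against 645 to 710 CPM in the others.

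The step from nerve to ONL, with the outer ONL alone at E16.5, differed between E13.5 and E16.5 by the interaction test of edgeR for 6 genes. The interaction was 2.41 for Omp (adjusted p = 0.0323), 1.55 for Gng8 (adjusted p = 0.000916), 3.17 for Gng13 (adjusted p = 0.0189), -1.44 for Gnal (adjusted p = 0.00932), -2.08 for Gap43 (adjusted p = 0.00303) and -3.63 for Lhx2 (adjusted p = 0.000168), all on the log2 scale.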

How the results depend on the processing

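Of 1275 refits of the 70 fold changes given, 1214 kept direction and side of the threshold, 33 lost the call, 24 gained it and 4 reversed. The 4 reversals came with grouping by label: Gng8 at 0.072 for E13.5 ONL minus nerve, -2.43 for outer ONL minus E13.5 ONL and -2.08 for the interaction, and Adcy3 at -0.032 for the interaction. Not counted were 20 pairs of gene and comparison under 1 SE or at the floor. Among them, by label, Cnga2 turned negative for outer ONL minus E13.5 ONL (-1.97) and for the interaction (-3.43). Gnal turned positive for outer ONL minus E13.5 ONL (0.43). Counts of the 10 genes called moved by over 1.5 times as follows. For inner minus outer ONL 3 became 1 by label, 5 with DESeq2, 5 in the fit of E16.5 alone and 6 with the replicate block. For the olfactory nerve, E13.5 minus E11.5 went from 8 to 5 by label and E16.5 minus E13.5 from 3 to 7 in the fit of 2 groups. By label, E13.5 ONL minus nerve went from 8 to 3 and the interaction from 6 to 3. All genes called went from 2733 to 1658 for inner minus outer ONL, from 7071 to 3380 for E13.5 minus E11.5 nerve and from 6087 to 3421 for E13.5 ONL minus nerve by label. The cause was not tested. Leaving out 1 library gave 6 to 8 genes for outer ONL minus nerve, 2 to 4 for inner minus outer ONL, 4 to 5 for outer ONL minus trigeminal nerve, 7 to 8 for E13.5 ONL minus nerve, 3 to 4 for E16.5 minus E13.5 nerve and 5 to 7 for the interaction, with 8 throughout in the other 3. The replicate block, fitted on E16.5 alone, left 7 genes called for outer ONL minus nerve and changed no call there. In the inner minus outer ONL comparison the numbers do not pair libraries (-0.132 to 0.252), and the block gave 6 calls. In the early comparisons no paired analysis was possible, because the replicate numbers there belong to mismatched labels.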
